A study of Homo sapiens with 12 samples.

Results

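The response described here is that of SET-2 cells with an arginine inserted in LSD1 (insR cells) to the LSD1 inhibitor GSK-LSD1. SET-2 is an established human acute myeloid leukemia line. The 6 insR libraries, of 12 libraries in all, were chosen by their labels: 3 came from insR cells given DMSO and 3 from insR cells given GSK-LSD1. Of 63677 genes listed, 27370 had a read in any of the 12 libraries, and 12864 passed the count filter and were tested. The insertion lies between Leu659 and Asn660, and the labels call these cells drug-resistant. All cells were seeded at 500000 cells per mL and received 250 nM GSK-LSD1 or 0.1% (v/v) DMSO for 48 h, and the other 6 libraries came from cells with wild-type (WT) LSD1 handled the same way. The labels do not say how the insertion was made, whether the insR cells are 1 clone or how many LSD1 alleles carry it. Nor is it stated that each replicate was its own culture. The p-values therefore reflect the spread among these libraries, which could be technical.

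LSD1, encoded by KDM1A, removes methyl groups from lysine 4 of histone H3 and works in corepressor complexes with CoREST and histone deacetylases. In blood cells the repressors GFI1 and GFI1B bring LSD1 to DNA through their SNAG domain, and inhibitors such as GSK-LSD1 attach to the enzyme's flavin cofactor beside the pocket that holds this domain. In leukemia cells LSD1 inhibitors are known for raising genes of myeloid differentiation.

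The place of the insertion is shown first, since it defines these cells. In the 852-codon KDM1A transcript of GENCODE 29, codons 659 and 660 are CTT and AAC, for leucine and asparagine, and lie in exon 15 of 19 at chr1:23079169-23079174 (GRCh38, forward strand). The reference coding bases around them are given with both codons in capitals, and the inserted codon, which the labels do not spell, would fall between them. The lower-case run on the right crosses into the next exon.
KDM1A: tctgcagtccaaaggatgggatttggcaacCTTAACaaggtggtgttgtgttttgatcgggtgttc

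KDM1A itself did not change detectably under the drug in insR cells. CPM are a gene's reads scaled to a common total of reads in tested genes, adjusted by the TMM factors of edgeR. The level of KDM1A was 109.1, 106.6 and 110.9 CPM in DMSO replicates 1, 2 and 3, and 107.3, 101.4 and 110.4 CPM in the treated replicates. The ranges overlapped, and the log2 fold change was -0.03 (95% interval -0.20 to 0.14, edgeR adjusted p = 0.983). In DMSO the KDM1A level was 109 ± 2.18 CPM in insR cells and 265 ± 26.5 CPM in WT cells (SD, n = 3). The part of this lower level in the drug response was not tested. A count per gene cannot reveal an inserted codon, and so the KDM1A level is no test of the genotype label.

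Reads in genes numbered 5789614 to 10141155 in the insR DMSO libraries and 4837096 to 6615832 in the treated ones. Mitochondrial reads made up 3.29% to 3.54% and 2.70% to 3.58% of reads in genes. In multidimensional scaling of the 6 libraries, the first dimension, with 25.1% of the variance, held DMSO libraries at 0.20 to 0.59 and treated ones at -0.58 to -0.31. The cells had stem, erythroid and megakaryocytic transcripts, with CD34 at 369.9 CPM, KLF1 at 550.1 CPM and ITGA2B at 705 CPM in DMSO replicate 1. CD14, CSF1R and MPO had at most 0.915 CPM in any insR library. CD3E had no count, which allows a level of up to 0.296 to 0.62 CPM per library (3 counts, counting error only).

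The comparison of treated with untreated insR cells asked which transcripts still responded to the drug. Higher transcripts included DHRS9, a retinol dehydrogenase, GDF3, a ligand of the TGF-beta family, the transcription cofactor LMO4, the repressor genes GFI1 and GFI1B, and the receptor genes STAB1, ITGAM and IL6R. Lower transcripts included the immediate early gene EGR1, the kinase scaffold AKAP12 and globin genes. A gene was called where the quasi-likelihood test of edgeR gave a Benjamini-Hochberg adjusted p below 0.05 over the 12864 genes. By this rule 0.505% of tested genes were called, 31 higher (0.241%) and 34 lower (0.264%). The 3 treated libraries did not overlap the 3 DMSO libraries in any of these 65 genes, and the same held for 13.7% of all tested genes, while 7.74% of tested genes had an unadjusted p below 0.05. Changes were small: the median size of the called changes was 0.73 on the log2 scale, the smallest was 0.36, and 6 genes rose and 5 fell by at least 2-fold.

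Leaving out 1 library, which also leaves fewer libraries to test, changed the number of calls. Leaving out insR DMSO replicate 1, 2 or 3 left 29, 34 and 45 calls, and leaving out treated replicate 1, 2 or 3 left 28, 28 and 40. Without WT DMSO replicate 1, 2 or 3 there were 63, 58 and 91 calls, and without treated WT replicate 1, 2 or 3 there were 78, 61 and 53. In every one of the 6 fits without an insR library 13 higher genes (among them DHRS9, GDF3, PHGDH, STAB1, FAM111B, LMO4, IL6R, TIMP2, RSAD2, GFI1B, GPR65 and VSTM1) and 6 lower genes (among them EGR1, AKAP12, C11orf96, TNNI3 and HBA2) were called, and 12 genes were called in none of them.

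**Figure D1:**
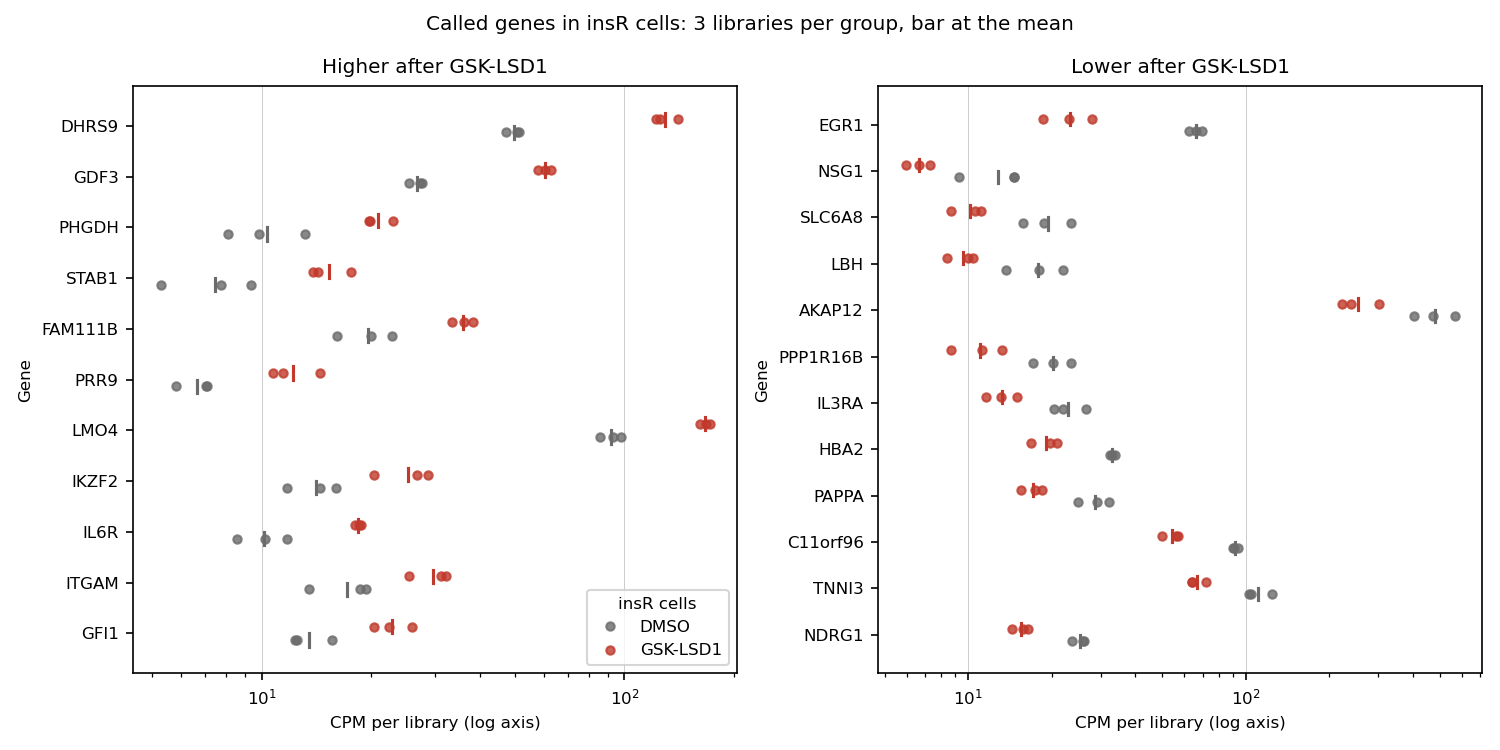
CPM on a log axis for 11 higher and 12 lower protein-coding genes among the largest changes of those called at a mean of at least 10 CPM. Each point is 1 insR library and each bar the mean of 3. Genes were shown only where the treated and DMSO points did not overlap. The log2 changes run from 1.39 for DHRS9 to -1.49 for EGR1.

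DHRS9 oxidises retinol and steroids. It stood at 47.3, 50.5 and 51.1 CPM in the 3 DMSO libraries and at 140.2, 126 and 122 CPM in the 3 treated ones. The lowest treated library was more than 2 times the highest DMSO library. The log2 fold change was 1.39 (SE 0.10, adjusted p = 3.17e-09), and in WT cells it was 0.71 (adjusted p = 5.9e-07). The difference in response, tested as an interaction, was 0.68 (adjusted p = 0.000437), so the rise was larger in insR cells on the log2 scale. The WT level was already 145 ± 13.3 CPM in DMSO and reached 237 ± 22.9 CPM (SD, n = 3). Of 13 tested genes of retinoid metabolism and reception, DHRS9 alone was called, and the list's median log2 fold change was -0.11, beside -0.001 over all tested genes. ALDH1A1, which makes retinoic acid, had 0.34 (adjusted p = 0.0794), and the retinaldehyde reductase DHRS3 had -0.40 (adjusted p = 0.357).

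GDF3 was at 25.5, 27.4 and 27.8 CPM in DMSO and at 57.8, 60.4 and 62.9 CPM after GSK-LSD1, with all treated libraries well above all DMSO libraries. Its log2 fold change was 1.17 (SE 0.11, adjusted p = 2.82e-07), against 3.12 in WT cells, a difference of -1.95 (adjusted p = 2.15e-09). No other of the 22 tested genes of the TGF-beta family and its targets was called. The list's median was -0.14, with 16 negative and 6 positive values, where 50.3% of all tested genes had a negative value. SKIL, a brake on SMAD signalling, had 0.35 (adjusted p = 0.26), and ID3, a target of BMP signals, had 0.50 (adjusted p = 0.297).

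LMO4, a LIM-domain cofactor, was at 92.8, 85.6 and 97.7 CPM in DMSO and at 172, 162 and 168 CPM in treated cells. The groups were far apart, and its log2 fold change of 0.86 (SE 0.08, adjusted p = 2.82e-07) compared with 2.64 in WT cells. TIMP2, an inhibitor of matrix metalloproteinases, was low in DMSO, at 3.25, 1.32 and 2.46 CPM, and rose to 12.1, 8.09 and 6.81 CPM. All treated libraries were above all DMSO libraries, and the log2 fold change was 1.86 (SE 0.27, adjusted p = 0.00149). In WT cells TIMP2 went from 2.2 ± 0.708 to 201 ± 19.4 CPM (SD, n = 3), a log2 fold change of 6.51, and the difference in response was -4.65 (adjusted p = 1.1e-07). FAM111B, a protease gene, stood at 16.2, 22.9 and 20.0 CPM in DMSO and at 38.3, 33.4 and 36.2 CPM in treated cells. The groups did not overlap, and the log2 fold change was 0.89 (adjusted p = 0.00145).

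The DNA-binding partners of LSD1 were among the higher genes. GFI1B, the repressor of erythroid and megakaryocytic cells, was at 107, 102.1 and 105.8 CPM in DMSO and at 148.1, 147.1 and 166.3 CPM in treated cells. GFI1, its relative in myeloid and stem cells, was at 12.4, 12.5 and 15.6 CPM in DMSO and at 25.9, 22.4 and 20.4 CPM in treated cells. Neither gene's groups overlapped. The log2 fold change was 0.55 for GFI1B (SE 0.08, adjusted p = 0.00112) and 0.78 for GFI1 (SE 0.14, adjusted p = 0.00606). GFI1 lost its call when replicate 1 of either insR group was left out, with adjusted p of 0.0669 to 0.0941. WT cells responded more, at 1.55 for GFI1B and 3.48 for GFI1, and the differences of -0.99 and -2.71 passed the test (adjusted p = 1.05e-06 and 1.56e-10).

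GFI1 and GFI1B are known to bind DNA at a core AAATCA and to act on their own promoters, so the GFI1B promoter is shown. Windows without a match were not printed. The 250 bases before 2 RefSeq (GRCh38.p14) start sites of GFI1B are printed with AAATCA in capitals. They lie on the forward strand at chr9:132945281-132945530, with the match at -170 from the start site, and at chr9:132978444-132978693, with the match at -31.
GFI1B upstream start: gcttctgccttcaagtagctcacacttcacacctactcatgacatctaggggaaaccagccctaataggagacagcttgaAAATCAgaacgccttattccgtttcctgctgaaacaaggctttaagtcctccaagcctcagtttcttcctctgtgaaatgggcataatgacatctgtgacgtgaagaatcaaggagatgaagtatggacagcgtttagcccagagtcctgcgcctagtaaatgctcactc
GFI1B downstream start: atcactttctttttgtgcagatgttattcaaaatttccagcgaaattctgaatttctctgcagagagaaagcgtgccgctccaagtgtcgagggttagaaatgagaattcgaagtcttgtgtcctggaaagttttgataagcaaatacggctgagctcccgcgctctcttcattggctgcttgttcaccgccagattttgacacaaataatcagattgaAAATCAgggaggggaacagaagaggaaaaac
AAATCA on either strand was present in the 250-base windows of 6 of the 25 higher genes with a promoter in the table (24%: CFI, DHRS9, FNBP1, GFI1B, IL6R and RSAD2) and in 3 of 25 lower genes (12%: LBH, TMOD1 and WARS1). Over all 27305 genes with a promoter the share was 13.8%. A match is a run of letters and not evidence of binding.

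A GDF3 window holds a pair of GATA motifs, spelled AGATAA or TTATCT on the opposite strand. It lies on the reverse strand at chr12:7695776-7696025, with matches at -43 and -31, shown in capitals.
GDF3: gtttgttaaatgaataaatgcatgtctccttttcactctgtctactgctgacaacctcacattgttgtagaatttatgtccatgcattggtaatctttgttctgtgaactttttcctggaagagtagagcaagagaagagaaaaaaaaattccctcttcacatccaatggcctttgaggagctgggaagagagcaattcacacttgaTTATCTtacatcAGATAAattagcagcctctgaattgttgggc
This motif was found for 3 of 25 higher genes (12%: DHRS9, GDF3 and TNFSF10), 1 of 25 lower genes (4%: TNNI3) and 11.12% of all 27305 genes.

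Among 26 tested transcription factors of blood cells, GFI1, GFI1B and IKZF2 rose and none fell, and the list's median was -0.01. IKZF2 (Helios) was at 11.8, 14.5 and 16.0 CPM in DMSO and at 26.7, 28.8 and 20.4 CPM in treated cells, with no overlap and a log2 fold change of 0.86 (adjusted p = 0.0381). Its call was lost without any 1 insR library other than treated replicate 3 (adjusted p 0.0597 to 0.24), without WT GSK-LSD1 replicate 3 (0.0647), without the robust option of edgeR (0.051), and in limma-voom and limma-trend (0.0809 and 0.0824). Over all alternatives the adjusted p ran from 2.83e-05 to 0.24. SPI1, which encodes the myeloid factor PU.1, had 0.57 (adjusted p = 0.0959) and LYL1 had 0.23 (adjusted p = 0.497).

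The receptor genes STAB1, ITGAM and IL6R rose, while the receptor genes IL3RA and TNFRSF1B, described further on, fell. STAB1, a scavenger receptor, was at 9.35, 5.28 and 7.73 CPM in DMSO and at 14.3, 13.9 and 17.7 CPM in treated cells. ITGAM, the integrin chain CD11b, was at 13.5, 19.5 and 18.6 CPM in DMSO and at 31.3, 25.5 and 32.2 CPM in treated cells. IL6R, the interleukin-6 receptor, was at 11.8, 8.58 and 10.2 CPM in DMSO and at 18.9, 18.0 and 18.6 CPM in treated cells. Treated libraries lay above DMSO libraries in all 3 genes, with log2 fold changes of 1.0 for STAB1, 0.82 for ITGAM and 0.84 for IL6R (adjusted p = 0.00425, 0.00425 and 0.00294). Without insR DMSO replicate 1 the ITGAM call was lost (adjusted p = 0.0658, with 1.86e-05 to 0.0658 over all alternatives). The corresponding WT values were 3.21, 1.80 and 1.72, and each differed from the insR value (adjusted p = 1.34e-07, 0.000605 and 0.000896).

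The receptor genes VSTM1 and GPR65 were chosen after their values were seen. VSTM1, an inhibitory receptor of myeloid cells, was at 40.8, 42.2 and 33.7 CPM in DMSO and at 70.4, 63.5 and 66.0 CPM in treated cells, all above the DMSO range. Its log2 fold change of 0.77 (adjusted p = 0.000783) exceeded the 0.12 of WT cells (adjusted p = 0.385), with a difference of 0.65 (adjusted p = 0.00393). VSTM1 was the 1 higher gene that was not called in WT cells. GPR65, a proton-sensing receptor, had 0.74 in insR cells and 1.03 in WT cells, and the difference of -0.29 did not pass (adjusted p = 0.235).

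Of 29 listed monocyte and macrophage markers 12 were tested, STAB1 and ITGAM rose, none fell, and the median was 0.05, beside 0.94 in WT cells. The markers' summed level was 328.9 to 339 CPM in DMSO and 372.5 to 390.4 CPM in treated insR libraries, and 10 markers had no count in any insR library. The lysozyme gene LYZ had 0.27 (adjusted p = 0.434) and CD33 had 0.22 (adjusted p = 0.529). In bulk RNA, a change in the number of cells that express a gene cannot be told apart from a change in RNA per cell, and the part of such cells in these results was not tested. CLEC4A, a lectin receptor raised from 0.208 ± 0.186 to 78.5 ± 18.3 CPM in WT cells (SD, n = 3), had 5 reads in all 6 insR libraries together.

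PHGDH, the first enzyme of serine synthesis, was at 9.86, 13.2 and 8.08 CPM in DMSO and at 19.8, 19.9 and 23.1 CPM in treated cells. The groups did not overlap, and the log2 fold change was 1.02 (SE 0.16, adjusted p = 0.00145). The WT value was 0.97, and the difference of 0.05 did not pass the test (adjusted p = 0.893). It was the 1 called gene of 22 tested in serine, one-carbon and ATF4-driven metabolism, whose median was -0.05. The next enzymes of the pathway, PSAT1 and PSPH, had log2 fold changes of 0.33 and 0.26 (adjusted p = 0.877 and 0.831).

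The lower genes opened with EGR1, a zinc-finger factor induced within minutes by growth-factor signals through MAP kinase and serum response factor. It was at 62.2, 66.1 and 69.8 CPM in DMSO and at 28.0, 18.7 and 23.1 CPM in treated insR cells. The highest treated library was below the lowest DMSO library by more than the spread within either group. The log2 fold change was -1.49 (SE 0.18, 95% interval -1.88 to -1.11, adjusted p = 0.000386). In WT cells EGR1 went from 13.1 ± 3.61 to 4.59 ± 2.18 CPM (SD, n = 3), a log2 fold change of -1.58. The difference in response was 0.08 and did not pass the test (adjusted p = 0.879).

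AKAP12 anchors protein kinases A and C. It was at 565, 471 and 405 CPM in DMSO and at 302.1, 221 and 239 CPM in treated insR cells, so all treated libraries were below all DMSO libraries. Its log2 fold change of -0.92 (SE 0.14, adjusted p = 0.00595) stood beside -0.42 in WT cells (adjusted p = 0.0561), where its level was 42.3 ± 3.83 CPM in DMSO (SD, n = 3). The difference of -0.50 did not pass (adjusted p = 0.106).

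EGR1 and AKAP12 share a sequence feature, a motif that was searched for after their calls were seen. In each, the 250 bases before a RefSeq start site (GRCh38.p14, both on the forward strand) hold CArG boxes, the motif of serum response factor, shown in capitals. Only windows with a match were printed, so any other start site of these genes is not shown. In EGR1 (chr5:138465229-138465478) the boxes begin at -105 and -83, and in AKAP12 (chr6:151239717-151239966) at -81.
EGR1: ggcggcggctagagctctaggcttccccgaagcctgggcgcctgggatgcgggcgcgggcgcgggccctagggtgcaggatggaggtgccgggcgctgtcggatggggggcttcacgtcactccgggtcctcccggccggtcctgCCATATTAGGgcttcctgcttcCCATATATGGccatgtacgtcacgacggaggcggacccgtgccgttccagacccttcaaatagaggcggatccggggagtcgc
AKAP12: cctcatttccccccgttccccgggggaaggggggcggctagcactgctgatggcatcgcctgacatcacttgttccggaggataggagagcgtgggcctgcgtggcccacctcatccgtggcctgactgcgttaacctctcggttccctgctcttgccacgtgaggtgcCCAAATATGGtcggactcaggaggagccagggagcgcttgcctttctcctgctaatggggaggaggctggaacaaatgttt
They were the 2 of 25 lower genes with such a box (8%), against 0 of 25 higher genes and 1.44% of all 27305 genes. The motif search was made with the calls in view, so these shares are a description.

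Of 20 tested immediate early genes 16 had negative log2 fold changes, with a median of -0.24. EGR1 was the only member that fell and FOSL2 the only one that rose, and the other 18 did not pass the test. FOSL2, an AP-1 subunit, was at 43.3, 46.0 and 36.2 CPM in DMSO and at 54.1, 57.0 and 69.5 CPM in treated cells, a log2 fold change of 0.52 (adjusted p = 0.0268). FOSL2 lost its call when DMSO replicate 1 or 3 or treated replicate 2 or 3 of the insR cells was left out (adjusted p 0.064 to 0.197) and in limma-voom and limma-trend. FOSB was at 17.2, 13.2 and 7.56 CPM in DMSO and at 6.45, 1.45 and 1.86 CPM in treated cells. Its groups did not overlap, but the log2 fold change of -1.94 did not pass (adjusted p = 0.0752). JUNB and MCL1 had -0.38 and -0.31 (adjusted p = 0.659 and 0.152).

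Of 14 tested MAP kinase feedback genes 11 had negative values, with a median of -0.21, and PHLDA1 alone fell. PHLDA1, which opposes AKT and growth signalling, was at 6.20, 4.62 and 3.87 CPM in DMSO and at 1.29, 1.24 and 1.39 CPM in treated cells. Treated libraries were below all DMSO libraries, at a log2 fold change of -1.91 (adjusted p = 0.0145). It was not called in WT cells (-0.85, adjusted p = 0.154), and the difference of -1.07 did not pass (adjusted p = 0.234). The insR call was lost without DMSO replicate 1 or any 1 treated library (adjusted p 0.073 to 0.16) and in limma-trend. The phosphatase gene DUSP6 had -0.74 (adjusted p = 0.595) and the Raf inhibitor SPRED1 had -0.37 (adjusted p = 0.429). TMEM158, a gene first described as induced by Ras and chosen here after its values were seen, was at 4.67, 3.79 and 3.69 CPM in DMSO and at 1.61, 0.622 and 0.929 CPM in treated cells. Its log2 fold change of -1.91 (adjusted p = 0.0149) was larger than the -0.54 of WT cells, with a difference of -1.37 (adjusted p = 0.0332), but the insR call was lost without DMSO replicate 1 or treated replicate 2 or 3 (adjusted p 0.0998 to 0.109).

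RSAD2 (viperin) is an antiviral gene that interferon induces. It was at 32.3, 29 and 34.1 CPM in DMSO and at 51.6, 55.0 and 53.1 CPM in treated cells, a log2 fold change of 0.74 (SE 0.11, adjusted p = 0.00112). The treated libraries were above all DMSO libraries, and WT cells had 1.80, a difference of -1.06 (adjusted p = 0.000134). Of 21 tested interferon response genes 1 rose and 1 fell, and the median was 0.02. IRF1 and ISG15 had -0.29 and 0.19 (adjusted p = 0.423 and 0.828).

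Globin genes were the list with the lowest median, -0.43, where WT cells had -3.11. Of 10 tested members HBA2, HBA1 and HBE1 fell and none rose, and 9 values were negative. HBA2 was at 32.5, 33.0 and 33.7 CPM in DMSO and at 20.9, 16.8 and 19.7 CPM in treated cells. HBA1 was at 181, 153.6 and 147.8 CPM in DMSO and at 102.2, 99.6 and 130.1 CPM in treated cells. Neither overlapped between groups, and the log2 fold changes were -0.78 for HBA2 (adjusted p = 0.00197) and -0.54 for HBA1 (adjusted p = 0.00972). These 2 alpha-globin genes are near-identical copies, as are HBG1 and HBG2, so how reads were divided within a pair is uncertain. HBE1, the embryonic beta-like globin, was at 135.6, 134.8 and 131 CPM in DMSO and at 103.1, 103.7 and 99.6 CPM in treated cells, a log2 fold change of -0.39 (adjusted p = 0.0379). HBA1 lost its call when DMSO replicate 1 or treated replicate 1 or 2 of the insR cells was left out (adjusted p 0.0907 to 0.107), and HBE1 without any 1 insR library (adjusted p 0.0856 to 0.177). Both were lost in limma-trend, and HBE1 also without the robust option of edgeR. HBG1, a fetal globin gene, had -0.35 (adjusted p = 0.053). The WT changes were larger, with differences in response of 2.83 for HBA2, 2.96 for HBA1 and 1.66 for HBE1 (adjusted p = 3.9e-10, 1.26e-11 and 1.73e-09).

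Of 29 tested red cell membrane and erythroid genes 22 had negative values, with a median of -0.15 against -1.25 in WT cells, and TMOD1 alone fell. TMOD1, which caps actin filaments of the membrane skeleton, was at 30.5, 31.2 and 27.8 CPM in DMSO and at 20.0, 18.7 and 20.6 CPM in treated cells, a log2 fold change of -0.59 (adjusted p = 0.0257). Its call was lost without any 1 insR library other than DMSO replicate 3 (adjusted p 0.073 to 0.138). The summed level of this list was 5332.7 to 5517.5 CPM in DMSO and 4901.7 to 5010.4 CPM in treated cells, and the part of a shift in erythroid cells was not tested. The water channel AQP1 had -0.39 (95% interval -0.63 to -0.14, adjusted p = 0.227) where WT cells had -7.23, and the fatty acid receptor CD36 had -0.24 (95% interval -0.41 to -0.07, adjusted p = 0.349) where WT cells had -4.70. Of 14 tested heme synthesis genes none was called. Their median was -0.13 in insR cells and -0.59 in WT cells.

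Of 34 tested hypoxia and glycolysis genes 26 had negative values, with a median of -0.13, and NDRG1 and SLC16A3 fell. NDRG1, a hypoxia-induced growth regulator, was at 25.9, 23.6 and 26.2 CPM in DMSO and at 16.4, 15.8 and 14.4 CPM in treated cells. The groups did not overlap, and the log2 fold change was -0.70 (SE 0.13, adjusted p = 0.00595). Without treated replicate 3 the adjusted p was 0.0506, and over all alternatives it ran from 0.00163 to 0.0506. SLC16A3, the lactate exporter MCT4, had -0.61 (adjusted p = 0.0129) and -0.47 in WT cells. Its insR call was lost without DMSO replicate 1 or treated replicate 1 or 2 (adjusted p 0.0849 to 0.105). ALDOC, an aldolase, had -1.21 (adjusted p = 0.051), and the glucose transporter SLC2A1 had -0.39 (adjusted p = 0.163) where WT cells had -2.05.

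Among the remaining named lower genes, C11orf96 was at 90.8, 89.7 and 93.3 CPM in DMSO and at 56.1, 50.0 and 57.0 CPM in treated cells, at a log2 fold change of -0.74 (adjusted p = 0.000199) against -1.60 in WT cells. TNNI3, which encodes cardiac troponin I, was at 124, 104.6 and 102.3 CPM in DMSO and at 71.7, 64.1 and 64.1 CPM in treated cells. Its log2 fold change was -0.73 (adjusted p = 0.00425, and 0.0908 in limma-trend, with 1.22e-07 to 0.0908 over all alternatives). The creatine transporter SLC6A8, the transcription cofactor LBH and PAPPA, a protease of insulin-like growth factor binding proteins, had -0.93, -0.92 and -0.75 (adjusted p = 0.0177, 0.0175 and 0.0359). Their calls were less secure. Those of SLC6A8 and LBH were lost without any 1 insR library other than DMSO replicate 3 (adjusted p 0.0506 to 0.17 and 0.0506 to 0.21), that of PAPPA without any 1 insR library (adjusted p 0.0596 to 0.25), and all 3 in limma-trend. COX6B2, a cytochrome oxidase subunit isoform of testis chosen after its values were seen, was at 7.72, 6.76 and 8.08 CPM in DMSO and at 2.10, 2.07 and 2.63 CPM in treated cells, a log2 fold change of -1.71 (adjusted p = 0.0111). Its call was lost without DMSO replicate 1 or treated replicate 1 or 2 (adjusted p 0.064 to 0.0927).

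Most of the insR response ran in the direction of the WT response, but 8 genes fell in insR cells and rose in WT cells. The WT and insR comparisons share no library, but as parts of the same fit they share the count filter, the estimates of spread and the scaling. Of the 65 called genes 51 were called in WT cells in the same direction, which is 78.5% of the insR calls and 0.877% of the 5816 WT calls, where 45.2% of tested genes were called in WT cells, 22.7% higher and 22.5% lower. The 8 with opposite directions were NSG1, PPP1R16B, IL3RA, NDRG1, H2BC12, SLC7A8, TNFRSF1B and TFPI, and in each the difference in response passed the test. H2BC12, SLC7A8, TNFRSF1B and TFPI were chosen after their values were seen. No called gene rose in insR cells and fell in WT cells.

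IL3RA, the alpha chain of the interleukin-3 receptor (CD123), was at 20.4, 21.9 and 26.5 CPM in insR DMSO and at 11.6, 14.9 and 13.2 CPM in treated insR cells. It lies in the region that the X and Y chromosomes share, so its counting is uncertain. In WT cells it went from 2.81 ± 0.657 to 6.86 ± 1.31 CPM (SD, n = 3). The log2 fold changes were -0.79 and 1.32, and the difference was -2.12 (adjusted p = 1.64e-05). NDRG1 went from 20.6 ± 0.514 to 39.6 ± 0.911 CPM in WT cells, a log2 fold change of 0.94 and a difference of -1.64 (adjusted p = 1.63e-07). TNFRSF1B, a receptor for tumour necrosis factor, had -0.46 in insR cells and 0.73 in WT cells.

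SLC7A8, a transporter of neutral amino acids, was at 350.6, 327.9 and 303.2 CPM in insR DMSO and at 225, 243 and 244 CPM in treated insR cells, a log2 fold change of -0.46 (adjusted p = 0.00606). In WT cells it was much lower and went from 8.72 ± 0.296 to 31.7 ± 3.97 CPM (SD, n = 3), a log2 fold change of 1.84. TFPI, the inhibitor of tissue factor coagulation, had -0.36 and 0.26. NSG1, a protein of endosomal trafficking, and PPP1R16B, a regulatory subunit of protein phosphatase, had -0.96 and -0.89 in insR cells and 0.49 and 0.73 in WT cells. The histone gene H2BC12, whose family members are alike enough to make its counting uncertain, had -0.62 and 0.92. The insR calls of IL3RA and TFPI were lost without any 1 insR library (adjusted p 0.064 to 0.222 and 0.0998 to 0.205), those of TNFRSF1B and H2BC12 without any 1 other than DMSO replicate 3 (0.11 to 0.268 and 0.0594 to 0.345), and that of NSG1 without any 1 other than DMSO replicate 2 (0.0631 to 0.192). That of PPP1R16B was lost without DMSO replicate 1 or 3 or treated replicate 2 or 3 (0.0856 to 0.226), and that of SLC7A8 without replicate 1 of either group (0.0654 to 0.0658).

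**Figure D2:**
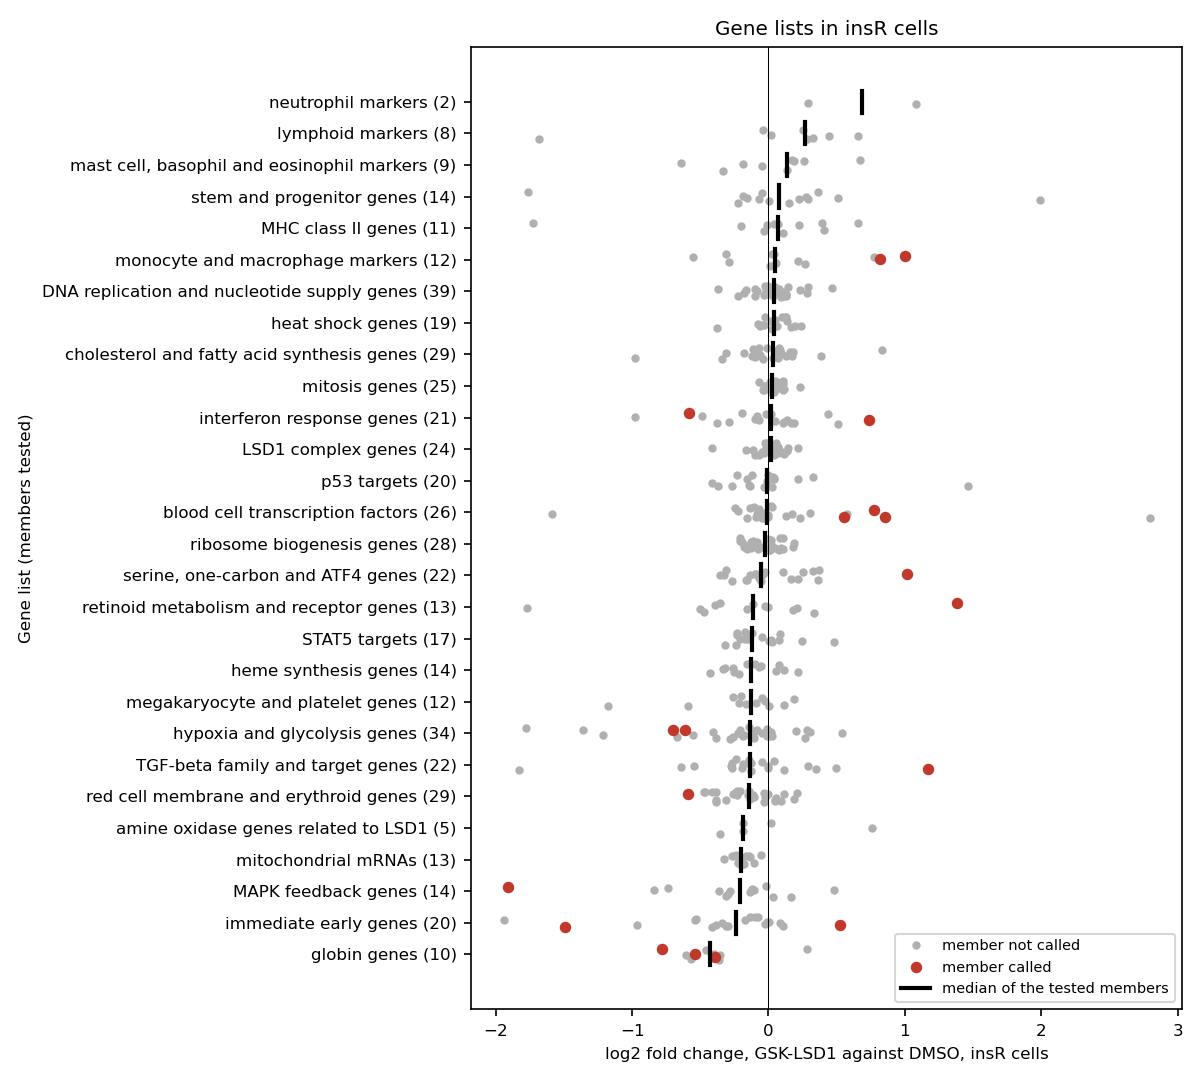
Log2 fold change in insR cells for each tested member of 28 gene lists, with called members in red and the list's median as a black bar. Globin genes have the lowest median, -0.43, and most other medians lie near 0, where the median of all tested genes is -0.001.

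Several lists with a negative median in WT cells had a median smaller in size in insR cells, with no called member. The 29 tested genes of cholesterol and fatty acid synthesis had a median of 0.04 in insR cells and -0.94 in WT cells. The 28 ribosome biogenesis genes had -0.02 and -0.62, the 19 heat shock genes 0.04 and -0.57, and the 17 STAT5 targets -0.12 and -0.38. The 39 genes of DNA replication and nucleotide supply had 0.04 and -0.31, and the 25 mitosis genes had 0.02 and -0.20. The 11 MHC class II genes, with a median of 1.47 in WT cells, had 0.07. CIITA, their master activator, had 0.40 in insR cells (adjusted p = 0.382). In these lists the members of lowest p included TM7SF2, a sterol reductase, at 0.84 (adjusted p = 0.0561), E2F2 at 0.47 (adjusted p = 0.0951), the nucleolar gene LYAR at -0.20 (adjusted p = 0.6), CCND2 at -0.15 (adjusted p = 0.67), HMMR at 0.23 (adjusted p = 0.643) and HSPH1 at 0.20 (adjusted p = 0.514).

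No member was called either among 24 LSD1 complex genes (median 0.02, with ZNF217 at 0.22), 5 amine oxidases related to LSD1 (median -0.19, with SMOX at -0.19) or 20 p53 targets (median -0.01, with BAX at -0.37). The 13 mRNAs of the mitochondrial genome all had negative values, from -0.32 to -0.06, with a median of -0.20 and no call. Their summed level was 14715.2 to 16823.3 CPM in insR DMSO libraries and 10947.5 to 16026.3 CPM in treated insR libraries, so the ranges overlapped. MT-ND4L was at 330.5, 344 and 335 CPM in DMSO and at 281, 320.1 and 290.5 CPM in treated cells (adjusted p = 0.599). The 14 stem and progenitor genes had a median of 0.08, and CD34 was at 369.9, 371.6 and 367 CPM in DMSO and at 455, 449.5 and 435 CPM in treated cells. The CD34 groups did not overlap, but its log2 fold change of 0.27 did not pass (adjusted p = 0.0925), where WT cells had 1.24.

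Markers of other blood lineages had no call. The 12 megakaryocyte and platelet genes had a median of -0.13, with THBS1 at -1.18 (adjusted p = 0.266), and the 9 mast cell, basophil and eosinophil markers 0.13, with the protease CPA3 at 0.67 (adjusted p = 0.112). Of 17 neutrophil markers 2 were tested, with CSF3R at 1.08 (adjusted p = 0.627), and of 15 lymphoid markers 8 were tested, with a median of 0.27 and CD79B at 0.44 (adjusted p = 0.604). Summed neutrophil markers were 12.2 to 14.4 CPM in DMSO and 12.2 to 16.1 CPM in treated cells, and summed lymphoid markers 32 to 36.1 and 37.5 to 42.1 CPM.

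**Figure D3:**
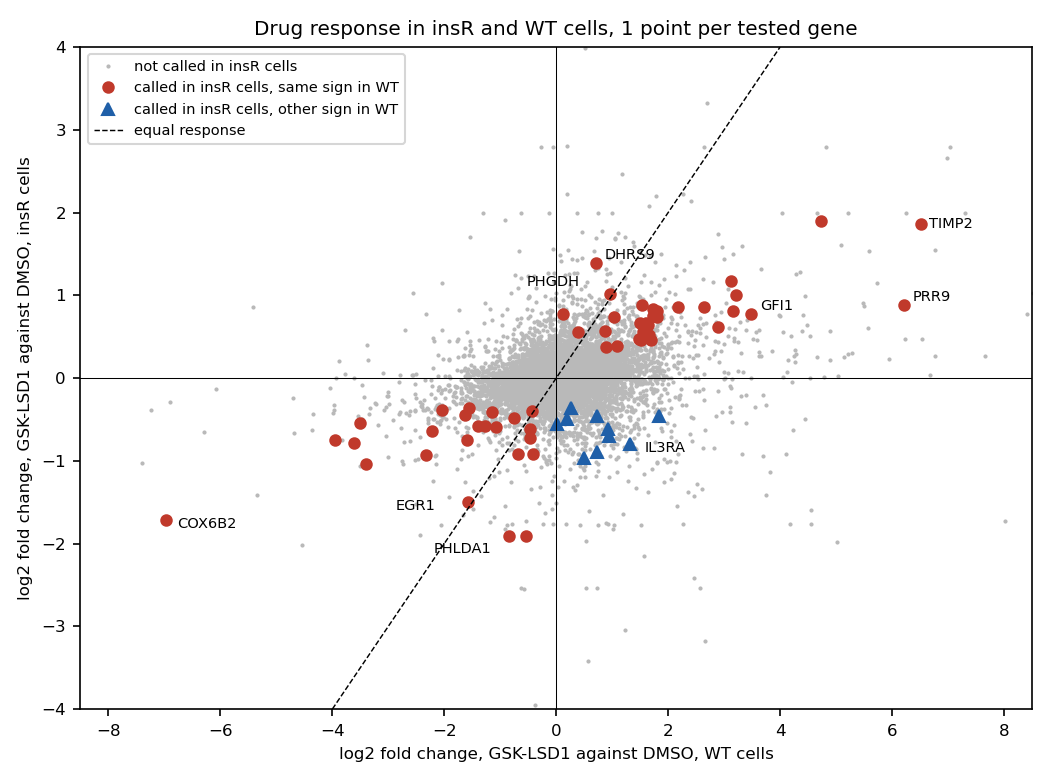
Log2 fold change in insR cells (y axis) against that in WT cells (x axis) for 12864 tested genes, of which 9 lie outside the axes. Red circles are insR calls with the same sign in WT cells, blue triangles those with the other sign, and the dashed line marks equal responses; EGR1 and PHGDH lie near that line and TIMP2 far below it.

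The size of the insR response was compared with that of WT cells gene by gene. The difference passed the test for 52 of the 65 insR calls, where 25.1% of all tested genes passed. The insR libraries that gave the calls also enter this test, so these shares are a description. Among the 31 higher genes 25 rose less than in WT cells and 2, DHRS9 and VSTM1, rose more. Among the 34 lower genes 14 fell less than in WT cells, and 11 had a more negative value than in WT cells, 8 of them the genes that rose there. For 13 genes the difference did not pass: EGR1, PHGDH, LBH, TNNI3, SLC16A3, AKAP12, PHLDA1, TMOD1, GPR65, ABCB9, ARHGAP27, CHSY1 and PLAAT3. The last 4 and GPR65 were chosen after their values were seen, and a difference that misses the threshold does not show equal responses.

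Genes that responded strongly in WT cells mostly missed the threshold in insR cells. Of the 12864 tested genes 382 were called in WT cells with a change of at least 2 on the log2 scale. Of these 382, 18 were called in insR cells (4.71% of them and 27.7% of the insR calls), all in the same direction. Over all tested genes 0.505% were called in insR cells. The classes by size were set by the WT values. Genes that rose by 3 or more in WT cells had a median insR change of 0.45, and 75.7% of them had a positive value. Genes that fell by 3 or more had a median of -0.39, and 83.0% had a negative value. Of these classes 6.09% and 10.64% were called in insR cells. Of the 115 genes that rose by 3 or more in WT cells, 9 reached a mean of 10 CPM in either insR group, and for 17 (14.8%) the 95% interval of the insR change lay within 1 of 0. For the rest of the 115 the interval reached 1 or more in size, so a 2-fold response in insR cells was not excluded at this depth. Of the 47 genes that fell by 3 or more, 21 reached that level, and 21 (44.7%) had such an interval. Without 1 library the count of 18 ranged from 6, without treated insR replicate 1, to 25, without WT DMSO replicate 3.

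Of the genes with the largest WT rises, most were near the count floor in insR cells. The rule gave PI16, CLEC4A, MAPK13, JAML, SNX21 and TIMP2 as the largest WT rises at 10 CPM or more. In insR cells PI16 had at most 0.352 CPM, MAPK13 at most 0.415, CLEC4A at most 0.415, JAML at most 0.495 and SNX21 at most 1.08, at or near the floor of 3 counts. Their fold changes in insR cells are therefore not interpreted, and of the genes this rule gave only TIMP2 was called. PRR9, whose WT level went from 0.872 ± 0.193 to 64.6 ± 2.27 CPM (SD, n = 3), was at 7.01, 7.09 and 5.80 CPM in insR DMSO and at 14.5, 10.8 and 11.5 CPM in treated insR cells. Its insR log2 fold change was 0.88 (adjusted p = 0.0111) and the WT value was 6.21. PRR9 lost its call when DMSO replicate 1 or 3 or treated replicate 1 of the insR cells was left out (adjusted p 0.0501 to 0.132) and in limma-trend.

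The largest WT falls at 10 CPM or more were AQP1, AQP3, CD36, DHH, OSBP2 and GJA4. The gap junction gene GJA4 had no count in any insR library. AQP3, a channel for water and glycerol, was at 71.9, 162 and 153 CPM in insR DMSO and at 33.2, 83.0 and 30.4 CPM in treated insR cells. Its groups overlapped, and the log2 fold change of -1.42 had a 95% interval of -2.97 to 0.14 (adjusted p = 0.696). The hedgehog ligand DHH had -0.33 (95% interval -0.65 to -0.00, adjusted p = 0.635) and the oxysterol-binding protein gene OSBP2 had -0.39 (95% interval -0.67 to -0.11, adjusted p = 0.325), where WT cells had -3.98 for both genes.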

How the data were processed

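The 12 libraries of SET-2 RNA were assigned to 4 groups of 3 by sample title. Per the labels' protocols, a QuantSeq 3' kit (FWD) was used on polyadenylated RNA, and reads mark transcript ends. The submitters' processing notes name bcl2fastq 2.2, STAR 2.6.0c, HTSeq 0.9.1, DESeq2 and the build hg19. Which annotation was used, and whether counting used strand, is not given in the sources used here. Values of overlapping and antisense genes are therefore uncertain.

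Counts, as deposited, are whole numbers of reads for each gene without normalization. The deposited normalized signal is those counts divided by 1 factor per library: 100% of values gave back whole reads, and 0 genes differed from the counts. The table of this signal was used in 1 alternative. Entries that name no gene were left out of library sizes and tests; of a table's total, 57.9% to 62.6% was the entry for non-unique alignments. Of 63677 gene identifiers 52526 matched a symbol.

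Counts of all 12 libraries were fitted with edgeR 4.0.16 (R 4.3.3), using its quasi-likelihood test with the robust option, TMM scaling and filterByExpr, and Benjamini-Hochberg adjustment over 12864 genes. The common biological coefficient of variation was 0.0968. CPM scale a gene's count to the total of reads in tested genes, multiplied by the library's TMM factor. The floors of 3 counts were scaled to all reads in genes, without TMM. The difference in response is the interaction of drug and cell type. The fit was tested on simulated data, where some unchanged genes were called and some changed genes were missed, more of them at smaller folds. The members and the 28 gene lists were chosen with earlier results of these data known.

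Named genes were KDM1A, the 12 largest changes per direction among called, protein-coding genes at a mean of at least 10 CPM without overlap between groups, up to 3 called members per list (or else that of lowest p), and the 6 largest WT changes per direction under the same conditions. Not every gene that this rule names is reported here. Others are marked as chosen after their values were seen. Intervals are at 95%.

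The alternatives tried were upper-quartile scaling and the size factors of DESeq2, a looser and a stricter count filter, DESeq2 1.42.0 itself, limma-voom and limma-trend (limma 3.58.1; log2 of the normalized signal plus 1), the insR libraries alone, a replicate block, no robust option, an adjusted p of 0.01, and each library left out. Promoter windows came from RefSeq on GRCh38.p14 and the KDM1A codons from GENCODE 29, later builds than the authors' hg19. Figures used matplotlib 3.10.9, and tables pandas 2.3.3 and numpy 2.4.6 in Python 3.11.15.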

Additional observations from a re-analysis of the deposited data

Results flagged for a closer look

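For 41 of the 63 named genes the drug response differed between insR and WT cells by edgeR's test of the difference itself. The share over all tested genes was 25.1%. Apart from KDM1A, the named genes were chosen by their insR or WT response in these same data. A higher share among them therefore follows from the choice and is no result. Values are given for 39 of them, as the insR log2 fold change minus the WT one. Groups of 3 libraries are too small for a test of single outlying samples, and none was made.

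Among genes that rose in both cell types, the difference was -4.65 for TIMP2, -5.33 for PRR9, -2.71 for GFI1, -2.2 for STAB1, -1.95 for GDF3 and -1.78 for LMO4, so each rose less in insR cells. It was -1.31 for IKZF2, -1.14 for FOSL2, -1.06 for RSAD2, -0.99 for GFI1B, -0.98 for ITGAM, -0.88 for IL6R and -0.64 for FAM111B. DHRS9, with 0.68, rose more in insR cells.

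Among genes that fell in both, the difference was 3.21 for PAPPA, 2.96 for HBA1, 2.83 for HBA2, 1.66 for HBE1, 1.41 for SLC6A8 and 0.85 for C11orf96, so each fell less in insR cells. The difference was -2.12 for IL3RA, -1.64 for NDRG1, -1.62 for PPP1R16B and -1.46 for NSG1, genes that fell in insR cells and rose in WT cells.

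Of genes that were called in WT cells but not in insR cells, the difference was -0.97 for CD34 and -0.91 for ZNF217 among those higher in WT cells, and 6.85 for AQP1, 4.46 for CD36, 3.65 for DHH, 3.59 for OSBP2, 0.98 for HSPH1, 0.63 for LYAR and 0.39 for CCND2 among those lower there. HMMR, a spindle gene that was called in neither cell type, had 0.47. PI16, CLEC4A, MAPK13, JAML and SNX21 had -13.31, -7.63, -7.39, -6.64 and -6.07, but their insR levels were at or near the floor of 3 counts, so the size of these differences depends on the fit.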

How the results depend on the processing

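No called gene among the 63 named changed direction under an alternative. Of 1438 comparisons of these genes with an alternative, 1323 kept direction and side of the threshold, 101 lost the call, 5 gained it and 9 changed sign, all in 4 genes near the count floor that were not called either way: JAML (0.04, against -0.005 in limma-trend), MAPK13 (0.27), CLEC4A (0.77) and SNX21 (0.47). Without 1 library their values ran from -0.61 to 0.53, -2.56 to 2.75, -0.19 to 1.39 and -0.92 to 2.34. The 65 calls stayed within 1.5 times under both other scalings (64 and 69), a filter at a mean of 1 CPM (65), DESeq2 (93), limma-voom (53), the insR libraries alone (91) and no robust option (54). Correlations of deviations from the group means were -0.003, 0.155 and -0.287 for same-numbered insR libraries over 9065 genes. Those of differently numbered ones ran from -0.298 to 0.304. These values did not show a pairing by replicate number, and they cannot settle whether there was one. With a replicate block 60 genes were called, 57 of them among the 65. Of the named genes only IKZF2 lost its call there (adjusted p = 0.0602). With no filter beyond 1 count 118 genes were called, 57 higher and 61 lower, 19 of them at least 2-fold, 30 among strong WT responders and 81 with a different response, and all 65 were among the 118. DESeq2 called 50 higher and 43 lower, and the fit of the 6 insR libraries alone called 53 lower. Limma-trend called 34 genes, 23 higher and 11 lower, 7 among strong WT responders and 25 with a different response. At an adjusted p below 0.01 there were 25 calls, 16 higher and 9 lower, 6 of them at least 2-fold, 8 among strong WT responders and 19 with a different response. Leaving out 1 library gave 28 to 91 calls, 16 to 46 higher and 9 to 45 lower, 7 to 14 at least 2-fold, 6 to 25 among strong WT responders and 21 to 68 with a different response. The lowest counts came without an insR library, which leaves 2 against 3, and the highest without WT DMSO replicate 3. The causes were not tested. Depth limited genes near 3 counts, worth 0.296 to 0.62 CPM per library.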
